A study of Mus musculus with 6 samples.

Results

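The 10 genes described here encode chaperones of the endoplasmic reticulum (ER) and factors of the unfolded protein response (UPR). They were chosen by name: the transcription factor genes Atf6 and Xbp1, the chaperone genes Hspa5, Hsp90b1 and Calr, the BiP partner genes Dnajb9, Hyou1 and Sdf2l1, the disulfide isomerase gene Pdia4 and the degradation gene Herpud1. They are 10 of 53801 genes in the count files, and all 10 were among the 15143 genes that passed the filter on low counts. RNA was sequenced from ciCPCs, cardiovascular progenitor cells made from mouse fibroblasts by chemical reprogramming, which were passaged after colonies had been picked on day 14. Cells at passage 20 (3 libraries) were compared with cells at passage 3 (3 libraries), a late and an early point of long-term expansion. All cells were wild type, of mixed C57BL/6 and 129J/SvE background, and both passages were kept in basal medium with BMP4, Activin A, CHIR99021 (a glycogen synthase kinase inhibitor) and SU5402 (an FGF receptor inhibitor).

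Secreted and membrane proteins fold in the ER lumen, where BiP, the product of Hspa5, binds unfolded chains with its partners, and where lectin chaperones and disulfide isomerases act on glycoproteins and thiols. When unfolded protein builds up, the UPR is set off through the membrane proteins ATF6, IRE1 and PERK. Cleaved ATF6 and the spliced form of XBP1 are known to induce chaperone and degradation genes through the ER stress response element (ERSE), while PERK acts through ATF4. The counts are per gene, so the spliced and unspliced forms of Xbp1 were not told apart.

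Of the 10 genes, Herpud1, Hsp90b1 and Atf6 rose at passage 20, and Dnajb9, Hyou1 and Sdf2l1 fell. Hspa5, Calr, Pdia4 and Xbp1 did not pass the test. The range ran from a 2.32-fold rise of Herpud1 to a 2.05-fold fall of Dnajb9, the 2 members with called changes of at least 2-fold, where 27.6% of all genes had one. The test was edgeR's quasi-likelihood test over all 15143 genes, with Benjamini-Hochberg adjustment and a threshold of 0.05. It called 74.3% of all genes, 37.0% as higher and 37.3% as lower, so 6 called members of 10 are no more than the background gives. The median log2 fold change of the members was -0.01, as it was over all genes tested.

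Libraries held 11387738 to 13285419 counts at passage 20 and 13995799 to 17721788 at passage 3, and members had 99 to 18067 counts per library. Levels are TMM-normalised CPM, that is counts scaled to library size, as mean ± SD with n = 3 per passage. Passage 20 replicate 3 stood apart from its group: against the mean of replicates 1 and 2, 11.3% of genes differed by at least 0.5 on the log2 scale, where 1.31% did in passage 3 replicate 3. For members whose call this library changes, values are given with and without it. The labels do not say that replicates were separate cultures. The p-values therefore cover the spread among these libraries alone, and that spread may be technical. No batch is named, and passage cannot be told apart from culture or library batch. In bulk RNA, fewer cells of a type and less RNA per cell cannot be told apart. All 8 markers of cardiovascular progenitors had counts (642 to 710.2 CPM in sum at passage 20, and 763 to 786 CPM at passage 3), with Nkx2-5, Gata4, Mef2c and Hand2 called higher and Isl1, Tbx5, Pdgfra and Kdr called lower. Mef2c averaged 105 CPM at passage 20 and 39.1 CPM at passage 3, and Isl1 averaged 7.45 CPM at passage 20 and 63.2 CPM at passage 3. The 6 fibroblast markers summed to 25660.4 to 30454 CPM at passage 20 and 11634 to 12425 CPM at passage 3, with S100a4 at 0 in all libraries, and the list was split. Col1a1, Col1a2 and Col3a1 carried the sum and were called higher, while Thy1 (5.64 CPM at passage 20 and 13.1 CPM at passage 3) and Pdgfrb (107 CPM at passage 20 and 172 CPM at passage 3) were called lower. The part of such cells in the results was not tested. Markers of plasma and other secretory cells summed to under 1 CPM in every library, with Ins1, Ins2 and Amy2a5 at 0.

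The ERSE is CCAAT, then any 9 bases, then CCACG, and the shorter ERSE-II is ATTGG, then any 1 base, then CCACG. Both were searched on both strands of RefSeq promoter windows on GRCm38.p6, from 250 bases before to 50 after each start, which were at hand for 8 of the 10 members (Atf6 and Hyou1 are named only). An ERSE was found in 37 of 27025 genes (0.137%) and in 3 of the 8 members, Hspa5, Calr and Hsp90b1. An ERSE-II was found in 12 genes (0.0444%), Herpud1 among them. The matches are shown because the ERSE is the element through which ATF6 and XBP1 are known to act. Each line gives the coding strand of the gene with the fixed letters of the motif in capitals. CGTGG followed by ATTGG is the ERSE read on the other strand.
Hspa5, chr2:34772015-34772053, plus strand: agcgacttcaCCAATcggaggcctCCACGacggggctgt
Calr, chr8:84847065-84847103, minus strand: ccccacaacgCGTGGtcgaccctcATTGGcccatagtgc
Hsp90b1, chr10:86705523-86705666, minus strand: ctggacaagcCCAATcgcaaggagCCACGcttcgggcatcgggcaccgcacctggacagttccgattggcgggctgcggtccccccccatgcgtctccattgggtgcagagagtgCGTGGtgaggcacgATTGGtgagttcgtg
Herpud1, chr8:94386367-94386397, plus strand: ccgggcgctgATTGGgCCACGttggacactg
Hsp90b1 held the motif in 2 places, once on each strand. The 4 genes shown did not share a direction: Herpud1 and Hsp90b1 rose, while Hspa5 and Calr did not pass the test. Pdia4, Sdf2l1, Xbp1 and Dnajb9 held no exact match in the window. Allowing 1 of the 10 fixed letters to differ added Pdia4 and Herpud1 among members and gave 466 genes in all (1.72%). The UPR element TGACGTGG (0.714% of genes), which contains the CCACG box on the other strand, and the ATF4 element TGATGNAAT (1.08%) were in none of the 8 windows.

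**Figure D1:**
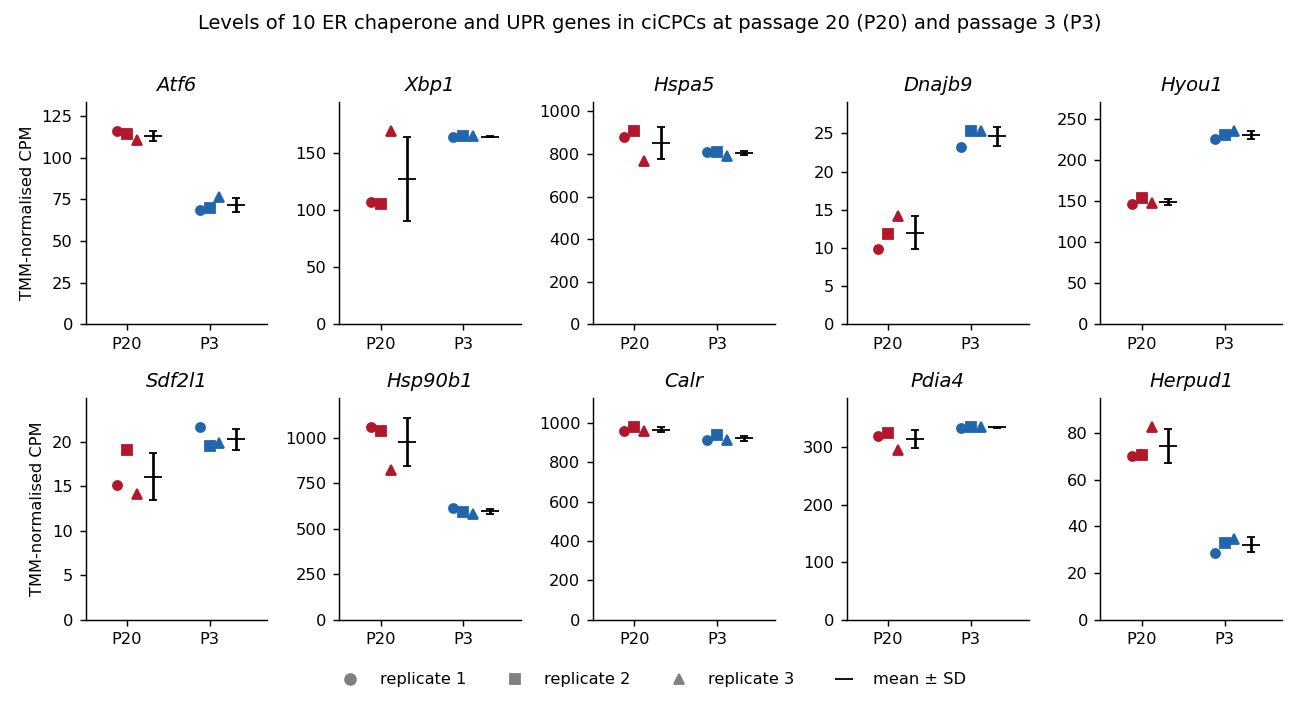
TMM-normalised CPM of each member in every library, passage 20 (red, left) and passage 3 (blue, right), with replicates 1 to 3 as circle, square and triangle and mean ± SD beside them. Herpud1 stands at 70.2 to 82.7 CPM at passage 20 above 28.5 to 34.8 CPM at passage 3, and the 3 passage 20 values of Xbp1 split into 107, 105 and 169 CPM.

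The transcription factor genes differed from each other. Atf6 (ENSMUSG00000026663, chromosome 1, 170704674 to 170867771 on GRCm38), the membrane-bound factor released by cleavage in the Golgi, had 116, 114 and 110.4 CPM at passage 20, against 68.5, 70.0 and 76.3 CPM at passage 3. All 3 passage 20 libraries lay above all passage 3 libraries, and Atf6 was 1.58-fold higher (log2 0.66 ± 0.06 SE, edgeR, adjusted p = 1.97e-06). Its relative Atf6b, the other ATF6 protein, went the opposite way: it had 32.6, 39.1 and 37.1 CPM at passage 20 and 68.2, 67.1 and 65.5 CPM at passage 3, 1.85-fold lower (log2 -0.88 ± 0.08 SE, edgeR, adjusted p = 1.16e-06). Per kilobase of exon, the ratio of Atf6 to Atf6b in the same library was 0.871 to 1.06 at passage 20 and 0.300 to 0.348 at passage 3.

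Xbp1 (ENSMUSG00000020484, chromosome 11, 5520659 to 5525893), whose messenger RNA is spliced by IRE1, had 107, 105 and 169 CPM at passage 20, against 164, 165 and 165 CPM at passage 3. Replicates 1 and 2 of passage 20 lay below every passage 3 library and replicate 3 lay above them. With all libraries the change was log2 -0.37 ± 0.18 (SE) and did not pass (edgeR, adjusted p = 0.110), with a 95% interval of 0.571 to 1.05-fold. Without passage 20 replicate 3 it was log2 -0.65 and passed. Xbp1 also passed with limma-voom (log2 -0.40) and with library sizes only (log2 -0.69). Without that replicate 8 members were called, 4 higher and 4 lower, with Hspa5 and Xbp1 added, where 78.8% of all genes were called, 38.9% higher and 39.9% lower.

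BiP and its partners were not carried along together. Hspa5 (ENSMUSG00000026864, chromosome 2, 34771970 to 34777547), which encodes BiP, had 879, 908 and 767 CPM at passage 20, against 809, 808 and 792 CPM at passage 3. The groups overlapped, since replicate 3 of passage 20 was the lowest of the 6 libraries, and the change was log2 0.08 ± 0.06 (SE, edgeR, adjusted p = 0.243) with a 95% interval of 0.963 to 1.17-fold. Without that replicate Hspa5 was called higher, at log2 0.14, and with library sizes only, without TMM factors, it was called lower, at log2 -0.25.

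Dnajb9 (ENSMUSG00000014905, chromosome 12, 44205559 to 44210326), which encodes the J-domain cochaperone ERdj4, had 9.80, 11.8 and 14.2 CPM at passage 20, against 23.2, 25.3 and 25.3 CPM at passage 3. Every passage 20 library was below every passage 3 library, and the fall was 2.05-fold (log2 -1.03 ± 0.12 SE, edgeR, adjusted p = 1.58e-05). Hyou1 (ENSMUSG00000032115, chromosome 9, 44379490 to 44392369), which encodes the nucleotide exchange factor GRP170 of BiP, had 146, 153 and 147 CPM at passage 20, against 225, 230.0 and 235 CPM at passage 3. Its groups did not overlap either, with narrow spread on both sides (149 ± 3.83 CPM at passage 20 and 230.2 ± 4.90 CPM at passage 3), and it was 1.55-fold lower (log2 -0.63 ± 0.05 SE, edgeR, adjusted p = 4.74e-07). Sdf2l1 (ENSMUSG00000022769, chromosome 16, 17130138 to 17132383), found with BiP and its cochaperones, had 15.2, 19.1 and 14.1 CPM at passage 20, against 21.7, 19.5 and 19.9 CPM at passage 3. Its nearest libraries were 19.1 CPM at passage 20 and 19.5 CPM at passage 3, and the fall of 1.26-fold (log2 -0.34 ± 0.12 SE, edgeR, adjusted p = 0.0202) did not pass without passage 20 replicate 1 or without passage 3 replicate 1, where it was log2 -0.31 and log2 -0.30.

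The other nucleotide exchange factor of BiP, Sil1, moved against Hyou1. Sil1 had 67.2, 63.7 and 63.6 CPM at passage 20 and 23.1, 22.9 and 25.1 CPM at passage 3, 2.73-fold higher (edgeR, adjusted p = 1.24e-08). Per kilobase of exon, the ratio of Hyou1 to Sil1 was 1.03 to 1.14 at passage 20 and 4.46 to 4.77 at passage 3. The listed J-domain cochaperone genes were split. Dnajb11 averaged 55.7 ± 1.43 CPM at passage 20 and 96.2 ± 3.41 CPM at passage 3 (1.73-fold lower, edgeR, adjusted p = 3.97e-07). Dnajc3, which encodes the cochaperone p58IPK, was 1.26-fold lower (edgeR, adjusted p = 0.00133). Dnajc1 was higher, at log2 0.25 (edgeR, adjusted p = 0.00301), and Dnajc10 did not pass, at log2 -0.04 (edgeR, adjusted p = 0.474); both were named after their values were seen.

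Among the abundant folding chaperones, Hsp90b1 rose and Calr did not pass. Hsp90b1 (ENSMUSG00000020048, chromosome 10, 86690209 to 86705509), which encodes GRP94, the HSP90 of the ER, had 1062, 1041 and 825 CPM at passage 20, against 613, 590.4 and 584 CPM at passage 3. The lowest passage 20 library, again replicate 3, was still above all passage 3 libraries, and the rise was 1.64-fold (log2 0.71 ± 0.09 SE, edgeR, adjusted p = 4.95e-05). Without replicate 3 it was log2 0.80. Calr (ENSMUSG00000003814, chromosome 8, 84841850 to 84846934), which encodes the soluble lectin chaperone calreticulin, had 957, 981 and 958 CPM at passage 20, against 914, 938 and 913 CPM at passage 3. The groups did not overlap, but the change was small, log2 0.07 ± 0.04 (SE, edgeR, adjusted p = 0.194), with a 95% interval of 0.978 to 1.12-fold, and its sign turned to log2 -0.01 with upper-quartile factors. With library sizes only Calr was called lower, at log2 -0.26. Canx, the membrane-bound relative calnexin, rose 1.73-fold, with 1225, 1210.0 and 1053 CPM at passage 20 and 667, 683 and 665 CPM at passage 3 (edgeR, adjusted p = 5.62e-07; named after its values were seen).

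Pdia4 (ENSMUSG00000025823, chromosome 6, 47796141 to 47813430), which encodes the disulfide isomerase ERp72, had 318, 324 and 295 CPM at passage 20, against 333, 335 and 334 CPM at passage 3. Passage 20 lay below passage 3 in all libraries, by little: log2 -0.10 ± 0.05 (SE, edgeR, adjusted p = 0.0997), with a 95% interval of 0.866 to 1.01-fold. It passed as lower with upper-quartile factors (log2 -0.17) and with library sizes only (log2 -0.43). Herpud1 (ENSMUSG00000031770, chromosome 8, 94386438 to 94395377), which encodes a membrane protein of ER-associated degradation, had 70.2, 70.5 and 82.7 CPM at passage 20, against 28.5, 33.1 and 34.8 CPM at passage 3. It was the member with the greatest rise, 2.32-fold (log2 1.21 ± 0.09 SE, edgeR, adjusted p = 4.94e-07), and the groups were far apart. Its relative Herpud2 stood at 55.8 ± 2.82 CPM at passage 20 and 52.1 ± 2.28 CPM at passage 3 and did not pass (edgeR, adjusted p = 0.200). In all, 8 of the 10 members had groups that did not overlap, where 77.5% of all genes did.

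**Figure D2:**
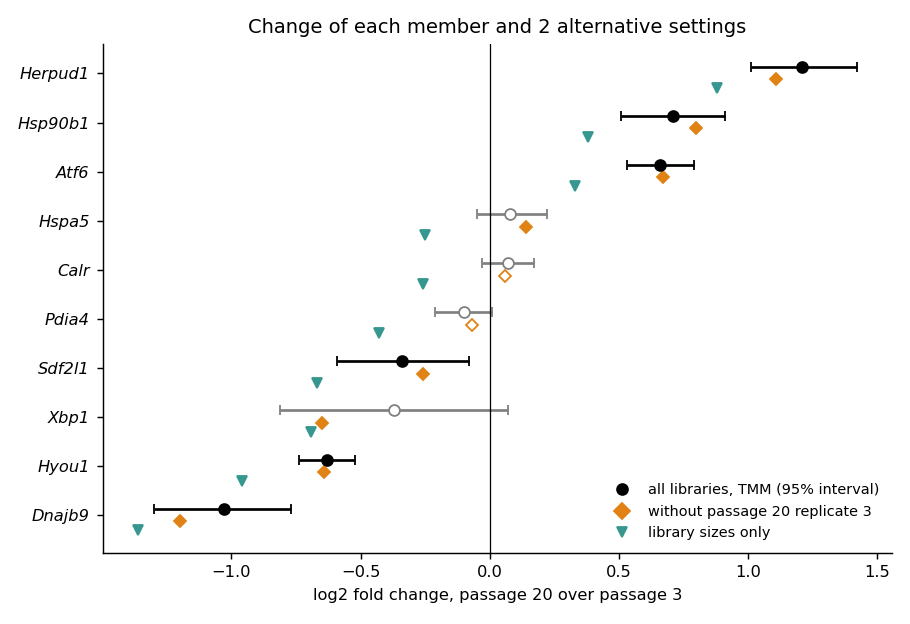
Log2 fold change of each member, passage 20 over passage 3, with all libraries (circles with 95% intervals), without passage 20 replicate 3 (diamonds) and with library sizes only (triangles). Filled symbols passed an adjusted p of 0.05; Xbp1 moves from -0.37 to -0.65 without replicate 3, and library sizes only shift all members to the left.

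The scaling matters for the smaller changes. With library sizes only, the median over all 15143 genes was log2 -0.34, where it was -0.01 with TMM factors, the share of calls that were higher was 29.9%, against 49.8%, and 3 members were called higher and 7 lower. Herpud1, Hsp90b1 and Atf6 were called higher and Dnajb9, Hyou1 and Sdf2l1 lower under both scalings. As a share of all counts, the 10 members took 0.320 ± 0.00954% at passage 20 and 0.358 ± 0.00300% at passage 3. The 111 other genes of the pathway took 2.53 ± 0.0557% at passage 20 and 1.78 ± 0.01% at passage 3. The 3 most abundant of these at passage 20, P4hb, Serpinh1 and Ero1l, took 0.916 ± 0.0578% at passage 20 and 0.330 ± 0.00646% at passage 3, and the other 108 took 1.61 ± 0.00494% at passage 20 and 1.45 ± 0.00719% at passage 3.

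Levels per kilobase of exon gave the order of the members at each passage. The lengths are unions of annotated exons, and the order between genes depends on them. At passage 20, Calr was highest (335 ± 4.54 CPM per kb), followed by Hsp90b1 (242 ± 32.6), Hspa5 (201 ± 17.6), Pdia4 (130.3 ± 6.41), Xbp1 (39.1 ± 11.3), Herpud1 (31.9 ± 3.06), Hyou1 (20.6 ± 0.530), Sdf2l1 (14.6 ± 2.37), Atf6 (12.3 ± 0.312) and Dnajb9 (4.69 ± 0.869 CPM per kb). The libraries of Hsp90b1 and Hspa5 overlapped there, as did those of Xbp1 and Herpud1. At passage 3 the order was Calr (320.0 ± 4.81 CPM per kb), Hspa5 (190.0 ± 2.25), Hsp90b1 (148 ± 3.79), Pdia4 (139 ± 0.368), Xbp1 (50.6 ± 0.0841), Hyou1 (31.8 ± 0.677), Sdf2l1 (18.4 ± 1.06), Herpud1 (13.8 ± 1.40), Dnajb9 (9.65 ± 0.483) and Atf6 (7.76 ± 0.448 CPM per kb), and no neighbours overlapped. Hsp90b1 thus stood above Hspa5 at passage 20 and below it at passage 3, with a ratio per kilobase of 1.13 to 1.27 at passage 20 and 0.766 to 0.795 at passage 3.

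The 5 relatives of ER chaperones named here, which work in the cytosol or in mitochondria, rose. Hspa8, the constitutive cytosolic HSP70, averaged 1520.0 ± 114 CPM at passage 20 and 1020.2 ± 32.3 CPM at passage 3 (1.49-fold higher, edgeR, adjusted p = 6.5e-06). The mitochondrial HSP70 gene Hspa9 had 592, 591 and 545 CPM at passage 20 and 175, 176 and 189.9 CPM at passage 3, 3.19-fold higher (edgeR, adjusted p = 1.07e-09). Against Hspa9 in the same library, Hspa5 was at a ratio per kilobase of 1.43 to 1.56 at passage 20 and 4.25 to 4.70 at passage 3. In the HSP90 family, Hsp90ab1 and Hsp90aa1 of the cytosol were 1.94-fold and 1.45-fold higher, and Trap1 of mitochondria 1.24-fold higher (edgeR, largest adjusted p = 0.000741), though the sign of Trap1 turned to log2 -0.02 with library sizes only. Hsp90b1 to Hsp90aa1 was a ratio per kilobase of 1.04 to 1.07 at passage 20 and 0.908 to 0.951 at passage 3. Hsp90b1 to Hsp90ab1 went the other way, with a ratio of 0.189 to 0.224 at passage 20 and 0.240 to 0.265 at passage 3. Of 16 relatives listed, 15 were tested: 9 rose, 3 fell and 3 missed the threshold (median log2 0.54), and with library sizes only 7 rose and 5 fell. Processed pseudogenes of Hspa8 and Hsp90ab1 can share reads with them.

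**Figure D3:**
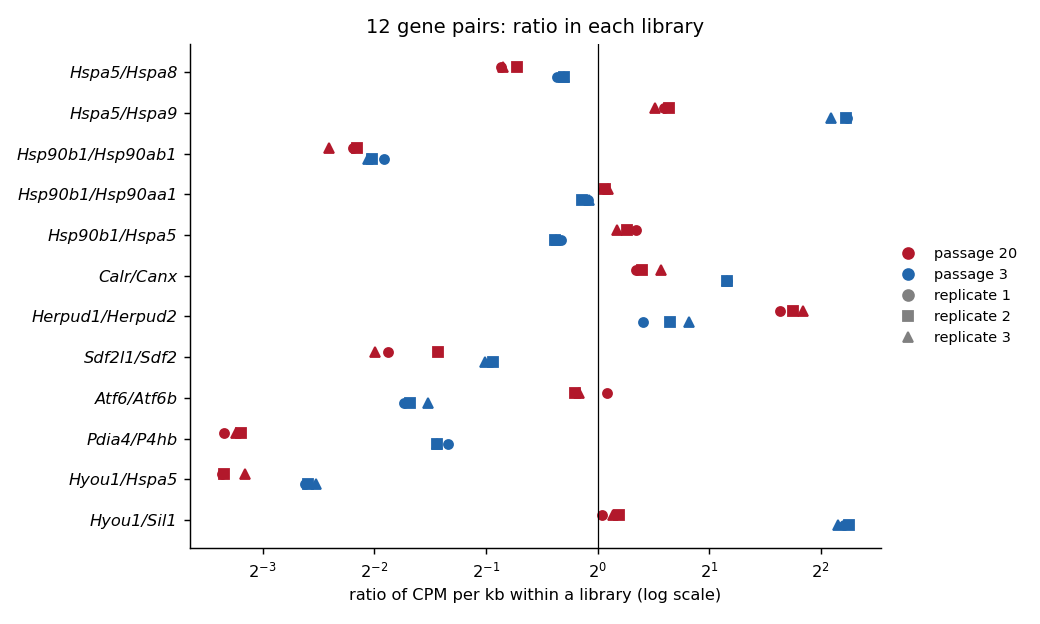
Ratio of CPM per kilobase of exon for 12 gene pairs in each library (log axis), passage 20 in red and passage 3 in blue, with shapes for replicates 1 to 3. The pairs were picked with the values known; Hyou1 to Sil1 lies at 1.03 to 1.14 at passage 20 and 4.46 to 4.77 at passage 3, while Atf6 to Atf6b lies higher at passage 20, at 0.871 to 1.06, than at passage 3, at 0.300 to 0.348.

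The stress sensors that act above the members were mixed. Ern1, which encodes IRE1, had 66.8, 63.6 and 74.2 CPM at passage 20 and 46.0, 45.5 and 43.5 CPM at passage 3, 1.52-fold higher (edgeR, adjusted p = 1.75e-05). Eif2ak3, which encodes PERK, had 37.1, 32.5 and 40.1 CPM at passage 20 and 32.4, 34.2 and 33.7 CPM at passage 3, and did not pass (log2 0.13 ± 0.08 SE, edgeR, adjusted p = 0.174). Its value was log2 0.21 and passed without passage 20 replicate 2, and its sign turned to log2 -0.20 with library sizes only. The genes of the proteases that release ATF6, Mbtps1 and Mbtps2, were 1.30-fold and 1.20-fold lower (edgeR, largest adjusted p = 0.00328). Creb3l1, a related membrane-bound factor, rose 1.92-fold, with 247, 239 and 268 CPM at passage 20 and 124, 135 and 134 CPM at passage 3 (edgeR, adjusted p = 9.3e-08). Of 9 listed genes of this kind, 8 were tested: 3 rose, 4 fell and 1 missed the threshold (median log2 -0.07), and with library sizes only 2 rose and 5 fell.

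The 7 lists of other pathway genes held 111 genes, of which 110 were tested. In all, 68 rose (61.8%), 21 fell and 21 did not pass, and the median log2 fold change was 0.35, beside 37.0% higher and a median of -0.01 over all genes. With library sizes only, 39 rose and 40 fell, where 3528 of all 15143 genes were called higher and 8273 lower. The same background stands beside the library-size counts of each list. Without passage 20 replicate 3, 71 rose and 24 fell, where 38.9% of all genes were called higher and 39.9% lower. The lists differed in their counts.

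Genes of oxidative folding were mostly higher. Of 16 disulfide isomerase and oxidase genes, 13 rose, 2 fell and 1 did not pass (median log2 0.67), and with library sizes only 10 rose and 3 fell. P4hb, which encodes protein disulfide isomerase and a subunit of collagen prolyl hydroxylase, had 3869.5, 3561 and 3329 CPM at passage 20 and 1004, 1086 and 1077 CPM at passage 3, 3.40-fold higher (edgeR, adjusted p = 1.82e-09). Erp29 rose 2.04-fold (edgeR, adjusted p = 2e-08), while Ero1lb and Txndc11 were 1.91-fold and 1.43-fold lower (edgeR, largest adjusted p = 3.92e-05). Ero1l, the other oxidase that feeds protein disulfide isomerase and a known target of hypoxia and PERK signalling, was named after its values were seen: it had 3622, 3317 and 2676 CPM at passage 20 and 91.7, 116 and 124 CPM at passage 3, 29.0-fold higher (log2 4.86 ± 0.16 SE, edgeR, adjusted p = 1.12e-07). Against P4hb in the same library, Pdia4 stood at a ratio per kilobase of 0.0981 to 0.109 at passage 20 and 0.368 to 0.396 at passage 3.

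The machinery of entry and glycosylation also leaned upward. Of 20 genes of translocation, 15 rose, 2 fell and 3 did not pass (median log2 0.36), though with library sizes only 6 rose and 4 fell. The signal recognition particle genes Srp68 and Srp72 rose 1.84-fold and 1.79-fold, and Sec11c, a signal peptidase subunit gene, and Sec62 were 1.62-fold and 1.18-fold lower (edgeR, largest adjusted p = 0.00766). Of 16 glycosylation genes, 11 rose, 1 fell and 4 did not pass (median log2 0.49), and with library sizes only 8 rose and 4 fell. Stt3a, a catalytic subunit gene of oligosaccharyltransferase, had 597, 576 and 518 CPM at passage 20 and 242, 246 and 258 CPM at passage 3 (2.27-fold higher, edgeR, adjusted p = 1.98e-08), and Rpn2 rose 1.86-fold. Mogs, which encodes the glucosidase that makes the initial cut in the glycan, was 1.28-fold lower (edgeR, adjusted p = 0.000255).

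Other chaperones and degradation genes split, as the members did. Of 16 chaperone genes, 9 rose, 5 fell and 2 did not pass (median log2 0.27), and with library sizes only 5 rose and 7 fell. Serpinh1, which encodes the collagen chaperone HSP47, had 3610.3, 3614 and 3319 CPM at passage 20 and 1761, 1793 and 1782 CPM at passage 3, 1.98-fold higher (edgeR, adjusted p = 2.78e-08). The collagen genes Col1a1, Col1a2 and Col3a1 of the fibroblast list were also higher at passage 20, while its markers Thy1 and Pdgfrb were lower, and their part in the levels of Serpinh1 and P4hb was not tested. Creld2 fell 1.68-fold with Dnajb11, and Manf and Hspa13, named after their values were seen, were 1.45-fold and 1.54-fold lower (edgeR, largest adjusted p = 5.05e-05). Of 21 degradation genes, 8 rose, 6 fell and 7 did not pass (median log2 0.10), and with library sizes only 2 rose and 14 fell. Derl1 and Os9 rose 1.61-fold and 1.46-fold, and Edem3, a mannosidase-like gene, and Nploc4, a cofactor of p97, were 2.06-fold and 1.67-fold lower (edgeR, largest adjusted p = 7.05e-06).

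**Figure D4:**
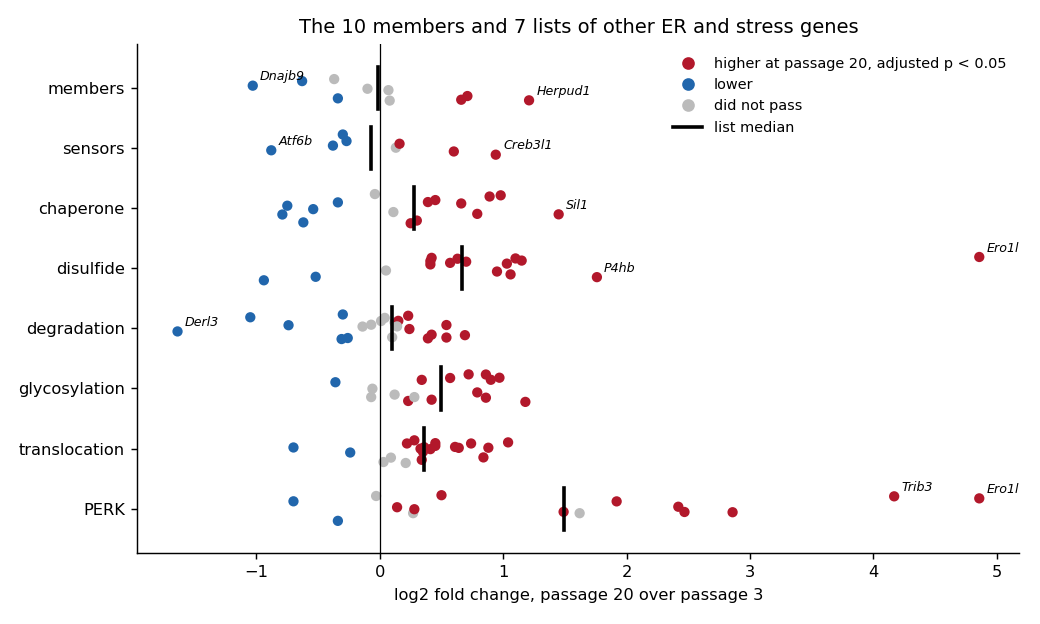
Log2 fold change, passage 20 over passage 3, of the 10 members and of each tested gene in 7 lists, red for higher, blue for lower and grey where the test was not passed, with list medians as black bars. The medians run from -0.07 in the sensors list to 1.49 in the PERK list, and the members' median is -0.01; Ero1l and Dnajc3 are in 2 lists each.

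The arm downstream of PERK showed the greatest list median. Of its 15 genes, 10 rose, 2 fell and 3 did not pass (median log2 1.49), and with library sizes only 7 rose and 4 fell. Atf4, its transcription factor, had 503, 501 and 422 CPM at passage 20 and 127, 123 and 127 CPM at passage 3, 3.78-fold higher (edgeR, adjusted p = 1.73e-09), and Ddit3, which encodes CHOP, had 60.8, 62.5 and 66.3 CPM at passage 20 and 11.1, 10.8 and 12.3 CPM at passage 3. The death genes of the list were split. Bcl2l11 was 1.62-fold lower (edgeR, adjusted p = 4.4e-06). Bbc3 and Tnfrsf10b, named after their values were seen, were 5.37-fold and 1.41-fold higher (edgeR, largest adjusted p = 0.000177). ATF4 also responds to other signals than PERK, and these genes were not separated by their inducer.

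Passage 20 replicate 3 also differed in Xbp1 among the members and in some genes of this arm. Among the members, its value divided by the mean of replicates 1 and 2 was 1.60 for Xbp1 and 1.31 for Dnajb9. It was 0.784 for Hsp90b1 and 0.819 for Sdf2l1. Of the members only Xbp1 differed by at least 0.5 on the log2 scale (0.68), where 11.3% of all genes did in either direction. The same share stands beside the genes of the arm. Of the 15 genes of the arm, 9 had a ratio above 1 and 6 a ratio below 1. In 4 of them replicate 3 was at least 0.5 higher on the log2 scale, Chac1 at a ratio of 3.54, Trib3 at 1.82, Ppp1r15b at 1.63 and Atf3 at 1.61, all named after their values were seen. Ddit3 was at 1.08, and Atf4, Bbc3 and Ero1l were at 0.841, 0.808 and 0.771. The heat-inducible genes Hspa1a and Hspa1b, near-identical copies whose reads may be split uncertainly, were at 0.0937 and 0.0889. Chac1 did not pass (edgeR, adjusted p = 0.0681), with 12.4, 11.4 and 42.1 CPM at passage 20 and 5.32, 7.39 and 8.95 CPM at passage 3.

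The ERSE also linked the members to genes of these lists. Among all 20 tested genes with an exact ERSE in the window, 9 were members or list genes, out of 121 such genes, 95 of them with a window. The 6 that are no members are printed here to set their letters beside those of Hspa5, Calr and Hsp90b1, each on the strand of the motif and with its boxes in capitals.
Canx, chr11:50325800-50325818, minus strand: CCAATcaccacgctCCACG
Pdia6, chr12:17266491-17266509, plus strand: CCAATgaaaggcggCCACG
Syvn1, chr19:6046532-6046550, plus strand: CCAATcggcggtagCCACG
Dnajc3, chr14:118937827-118937845, plus strand: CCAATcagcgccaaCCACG
Creld2, chr15:88819520-88819538, minus strand: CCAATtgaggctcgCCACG
Derl3, chr10:75893242-75893260, minus strand: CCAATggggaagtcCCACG
Canx and Pdia6 rose (log2 0.79 and 0.41) with Hsp90b1, while Syvn1, Dnajc3, Creld2 and Derl3 fell (log2 -0.31, -0.34, -0.75 and -1.64), the last with under 3 CPM in every library. Of the 9 genes, 3 rose, 4 fell and 2 did not pass. Over all 20 tested genes with the motif, 6 rose, 7 fell and 7 did not pass, with a median log2 fold change of 0.07. Of 10977 tested genes with a window, 36.9% were called higher and 37.8% lower. The ERSE-II of Dnajb11 (ATTGGcCCACG, chr16:22857852-22857862, plus strand) is at 7 to 17 bases after the start, and Dnajb11 fell where Herpud1 rose.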

How the data were processed

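RNA sequencing data of 6 ciCPC samples were used. Per the submitters' processing notes, HISAT2 2.0.5, SAMtools, HTSeq and DESeq2 were used with GRCm38; for the annotation release and strandedness, a statement was not given in the sources used here. Each library has deposited gene counts, as whole numbers, and values that the authors deposited on a log2 scale, whose transformation is not stated.

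Of 53801 identifiers, 53706 matched GENCODE M21 on GRCm38, the source of names, positions and exon lengths (union of exons). Counts were filtered with filterByExpr (15143 genes), scaled with TMM factors and tested with edgeR 4.0.16 in R 4.3.3 by the robust quasi-likelihood test. Intervals are approximate, from the fold change and its test statistic. No molecular identifiers are named, so precision covers counting and replicate error only. Alternatives were DESeq2 1.42.0, limma-voom (limma 3.58.1), limma on the deposited log2 values, library sizes only, RLE or upper-quartile factors, no filter, at least 1 CPM in 3 libraries, a threshold of 0.01, a replicate block, and each library left out. The test was also run on simulated counts with known changes, 50 genes per fold. It called 28% of genes changed 1.25-fold, 68% at 1.5-fold, 76% at 2-fold and 100% at 4-fold. Of 14943 unchanged genes it called 0.0669%. Nearly all genes in that run were thus unchanged, where 74.3% of genes were called in the measured counts. The Benjamini-Hochberg adjustment depends on that share, and whether these rates hold for the measured counts was not tested. Small changes could be missed.

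Members and lists were chosen with earlier results of these data known. The rule for named genes took the 10 members, 5 sensors and proteases, 5 relatives in other compartments, and from each other list up to 2 called genes per direction with the smallest adjusted p. Exons of Erp29, Txndc11, Syvn1, Manf, Dnajc1, Eif2ak3, Trap1 and Ddit3, among others, overlap other genes with counts. Exons of Hsp90b1 also overlap neighbours, which held 378, 0 and 280 counts over all libraries together. The counts on the shared bases were not separated. All of these values are uncertain. Of 2 identifiers for Ddit3, the counted one was used.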

Additional observations from a re-analysis of the deposited data

How the results depend on the processing

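Of 704 values for 44 named genes under 16 alternatives, 688 kept their direction and side of the threshold. Of the rest, 3 lost the call, 8 gained it with the same sign and 5 changed sign. Among those 5, Hspa5 and Calr with library sizes only were also called. Many of the named genes were picked for a small adjusted p, which made kept calls likely. The pooled count therefore does not measure how stable the members are. All changes fell on the members Hspa5, Xbp1, Calr, Pdia4 and Sdf2l1, and on Eif2ak3 and Trap1. With library sizes only, 3528 of all genes were called higher and 8273 lower, 7 members were called lower, and 39 other pathway genes were called higher and 40 lower. Signs changed there for Hspa5 (-0.25), Calr (-0.26), Eif2ak3 (-0.20) and Trap1 (-0.02), and with upper-quartile factors for Calr (-0.01). Leaving out 1 library gave 3 to 4 members higher and 2 to 4 lower. The 8 members called without passage 20 replicate 3 stand beside a background of 78.8%. At a threshold of 0.01, Sdf2l1 was not called. With the replicate block, 3 members were called higher and 4 lower, Xbp1 being added (log2 -0.40). No pairing by number was seen: deviations of same-numbered samples correlated at 0.0143, -0.0273 and 0.0454 for numbers 1, 2 and 3. These values cannot exclude a pairing, and the labels do not state one. DESeq2 and limma on the deposited log2 values each called 3 members higher and 3 lower. The cause of these differences was not tested. Dnajb9 and Sdf2l1 had the fewest counts of the members, 99 to 501 per library, and each had an SE of 0.12 on the log2 scale, while Xbp1, with 1057 to 3256 counts, had an SE of 0.18.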
